A study of Arabidopsis thaliana with 18 samples.

Results

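The miR156 and miR157 families of *Arabidopsis thaliana* seedlings are described here, with both strands of their duplexes. They were taken by name as every entry of the miRNA abundance table that belongs to miR156 or miR157, which gave 9 of the 161 entries. The 9 entries join 17 of the table's 203 miRNA names, since loci that make an identical mature RNA share 1 entry. 6 entries are miR156 and 3 are miR157. 3 of them hold the guide strands (the joint miR156a to miR156f guide, miR156g, and the joint miR157a to miR157c guide), and 6 hold passenger strands (miR156a-3p, miR156b-3p, miR156c-3p, miR156f-3p, the joint miR157a/b-3p and miR157c-3p). The table gives reads per 1000000 reads of 45S rRNA (RPMR), so each value is relative to the ribosomal RNA fragments of the same library.

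The study sequenced small RNAs of whole 4-d-old seedlings to ask how far the *dcl1-24* allele restores miRNA levels when HYL1 is missing, and which miRNAs rise in the warmth. All seedlings spent 48 h at 21 °C in red light, after which they either remained there or were moved to 27 °C for a further 48 h. There were 3 genotypes at each temperature, all in the Col-0 background, with 3 biological replicates in each of the 6 groups: wild-type Col-0, the *hyl1-2* mutant, which lacks the double-stranded-RNA-binding protein HYL1, and *dcl1-24*/*hyl1-2*, which also lacks HYL1 and carries in addition the *dcl1-24* allele of the dicer gene *DCL1*. The *dcl1-24*/*hyl1-2* plants, below also called the suppressor line, are a single line recovered after chemical mutagenesis of *hyl1-2*, so other mutations of that line cannot be told apart from the allele. The small RNA table holds no *HYL1* or *DCL1* transcript, so the genotype labels were not checked against it.

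In plants, DCL1 cuts a miRNA duplex out of the folded precursor, and HYL1 helps it to cut at the right position and influences which strand is retained. The guide strand is loaded into ARGONAUTE1 and directs it to complementary messenger RNAs, while the passenger strand is usually discarded. The guides of miR156 and miR157 repress *SQUAMOSA PROMOTER BINDING PROTEIN-LIKE* (*SPL*) genes, which promote the change from juvenile to adult growth, and miR156 is therefore abundant in young seedlings.

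The mature sequences are shown because the guides are nearly the same while the passengers differ, which is what allowed the passengers of single loci to be counted apart. All 17 names were found in the RefSeq annotation of TAIR10.1, at 10 loci on 5 chromosomes. Each RNA is written from its 5′ end, and capitals mark the seed, bases 2 to 8.
miR156a to miR156f guide: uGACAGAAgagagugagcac
miR156g guide: cGACAGAAgagagugagcac
miR157a to miR157c guide: uUGACAGAagauagagagcac
miR156a-3p: gCUCACUGcucuuucugucaga
miR156b-3p: uGCUCACCucucuuucugucagu
miR156c-3p: gCUCACUGcucuaucugucaga
miR156f-3p: gCUCACUCucuauccgucacc
miR157a/b-3p: gCUCUCUAgccuucugucauc
miR157c-3p: gCUCUCUAuacuucugucacc

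The 9 RNAs carry 6 different seeds. The miR156 guide and miR156g share a seed and differ at the first base only (U1C, counted from 1 at the 5′ end). The miR157 guide is 21 nt long, with 1 extra base at its 5′ end, which shifts its seed by that base, and aligned to the miR156 guide it differs at G11U and U14A, in positions of the miR156 guide. The miR156a and miR156c passengers share a seed and differ at U13A alone, and the miR157 passengers share a seed and differ at G9U, C10A and U20C. The miR156b passenger is the longest, at 23 nt, and the only one of the 6 passengers that begins with U.

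The common miR156 guide is encoded at *MIR156a* (AT2G25095, chromosome 2), *MIR156b* (AT4G30972) and *MIR156c* (AT4G31877) on chromosome 4, and *MIR156d* (AT5G10945), *MIR156e* (AT5G11977) and *MIR156f* (AT5G26147) on chromosome 5. *MIR156g* (AT2G19425) lies on chromosome 2, within the span of the protein-coding gene AT2G19420 on the opposite strand. *MIR157a* (AT1G66783) and *MIR157b* (AT1G66795) lie 7807 bp apart on chromosome 1, and *MIR157c* (AT3G18217) is on chromosome 3. The table lists no passenger for *MIR156d*, *MIR156e* or *MIR156g*, so a guide value sums loci whose passengers are only partly represented.

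The precursors of miR156b, miR156c and miR157c are shown because of the tests of their passengers in *hyl1-2*, given below. Relative to rRNA, miR156c-3p was called lower than in Col-0 at both temperatures, and miR156b-3p and miR157c-3p were not. Differences between these passengers were not tested. Capitals mark the guide at the 5′ end and the passenger at the 3′ end, in the sequence read from the TAIR10.1 genome on the strand of the gene (miR156b at chr4:15074945-15075026, plus strand; miR156c at chr4:15415426-15415510, minus strand; miR157c at chr3:6244527-6244693, minus strand).
miR156b stem-loop: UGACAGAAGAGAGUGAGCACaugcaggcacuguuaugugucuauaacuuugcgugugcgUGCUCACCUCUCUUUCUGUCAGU
miR156c stem-loop: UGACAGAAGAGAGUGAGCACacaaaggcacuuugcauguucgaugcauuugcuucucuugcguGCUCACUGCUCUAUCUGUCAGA
miR157c stem-loop: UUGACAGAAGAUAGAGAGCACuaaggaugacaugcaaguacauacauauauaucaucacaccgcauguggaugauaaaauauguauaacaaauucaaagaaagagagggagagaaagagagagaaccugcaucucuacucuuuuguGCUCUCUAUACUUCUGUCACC

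The strands of miR156b and miR156c are separated by 39 and 43 nt. The precursor of miR157c has the longest stretch between guide and passenger of the precursors with both strands listed, at 125 nt.

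Depth differed between the groups. The deposited values are whole multiples of 1 read, which gave 11040 to 173156 miRNA reads per library, and a read was worth 0.24 to 0.896 RPMR. The *hyl1-2* libraries at 21 °C were the shallowest, at 11040 to 13765 miRNA reads, and there each passenger rested on 3 to 37 reads. Replicate 3 of *dcl1-24*/*hyl1-2* at 21 °C had the fewest 45S rRNA reads of all libraries (1115776), and all 6 passengers were higher in it than in the other replicates of its group. miR5026, an unrelated miRNA, took 1.37% to 4.26% of the summed miRNA RPMR in Col-0, 22.4% to 50.0% in *hyl1-2* and 37.2% to 64.4% in *dcl1-24*/*hyl1-2*, and therefore 1 of the scalings below leaves it out.

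The miR156a to miR156f guide was the major product of the family and ranked 6 of 161 entries by mean level. It was at 5696, 1254 and 2372 RPMR in replicates 1, 2 and 3 of Col-0 at 21 °C, and at 2818, 4989.9 and 1418 RPMR at 27 °C. In *hyl1-2* it was at 173, 149 and 87.8 RPMR at 21 °C and at 477, 337 and 215 RPMR at 27 °C. Every *hyl1-2* library lay below every Col-0 library, and within *hyl1-2* the libraries at 27 °C lay above those at 21 °C. In *dcl1-24*/*hyl1-2* the guide was at 1435, 691 and 1767 RPMR at 21 °C and at 564, 1352 and 2590.3 RPMR at 27 °C, above all *hyl1-2* libraries and overlapping Col-0. Of the same 139 entries, 70.5% lay above *hyl1-2* in every suppressor library at 21 °C and 51.8% at 27 °C. Col-0 was overlapped by 74.1% and 71.2% of them.

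In order of their means, the guide stood at 3107 ± 2310.2 RPMR in Col-0 at 21 °C (SD, n = 3), 3075 ± 1799.8 in Col-0 at 27 °C, 1502 ± 1021 in the suppressor line at 27 °C, 1298 ± 551 in the suppressor line at 21 °C, 343 ± 131 in *hyl1-2* at 27 °C and 137 ± 44.1 in *hyl1-2* at 21 °C. The first 4 of these groups overlapped their neighbours in that order. As a share of the summed miRNA RPMR the guide took 6.90% ± 3.70 (SD, n = 3) in Col-0 at 21 °C, 6.61% ± 0.525 in Col-0 at 27 °C, 2.37% ± 0.446 in *hyl1-2* at 21 °C, 2.85% ± 0.370 in *hyl1-2* at 27 °C, 2.53% ± 0.965 in the suppressor line at 21 °C and 2.58% ± 0.626 at 27 °C. By RPMR the mean of the guide in *dcl1-24*/*hyl1-2* therefore stood between those of the other genotypes. Its share is of a sum that includes miR5026, the entry that took 22.4% to 50.0% of it in *hyl1-2* and 37.2% to 64.4% in the suppressor line. In whole seedlings, fewer cells that make an RNA and less of it per cell cannot be told apart.

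miR156g, the 1-base variant of the guide, was at 23.3, 5.91 and 11.3 RPMR in Col-0 at 21 °C and at 13.0, 15.5 and 7.51 RPMR at 27 °C. In *hyl1-2* at 21 °C it was at 1.01 RPMR in replicate 1, on 2 reads, and at 0 in replicates 2 and 3, which allows up to 1.67 and 1.02 RPMR (3 reads, counting error only). At 27 °C it was at 1.20, 2.66 and 1.0 RPMR in *hyl1-2*. In *dcl1-24*/*hyl1-2* it was at 6.26, 1.89 and 8.96 RPMR at 21 °C and at 2.03, 4.90 and 13.1 RPMR at 27 °C. Its *hyl1-2* libraries were all below the Col-0 libraries, the same order as that of the common guide.

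The miR157 guide was at 84.7, 75.6 and 81.3 RPMR in Col-0 at 21 °C and at 72.0, 103 and 27.3 RPMR at 27 °C. It was at 11.1, 16.7 and 4.76 RPMR in *hyl1-2* at 21 °C and at 17.1, 12.9 and 6.34 RPMR at 27 °C. In the suppressor line it was at 52.6, 74.6 and 151 RPMR at 21 °C and at 19.7, 42.3 and 35.5 RPMR at 27 °C. Here too every *hyl1-2* library lay below every Col-0 library, and *dcl1-24*/*hyl1-2* overlapped Col-0 at both temperatures. The miR156 guide exceeded the miR157 guide in every library, by 16.6 to 67.3 times in Col-0 at 21 °C and by 8.93 to 18.4 times in *hyl1-2* at 21 °C.

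**Figure D1:**
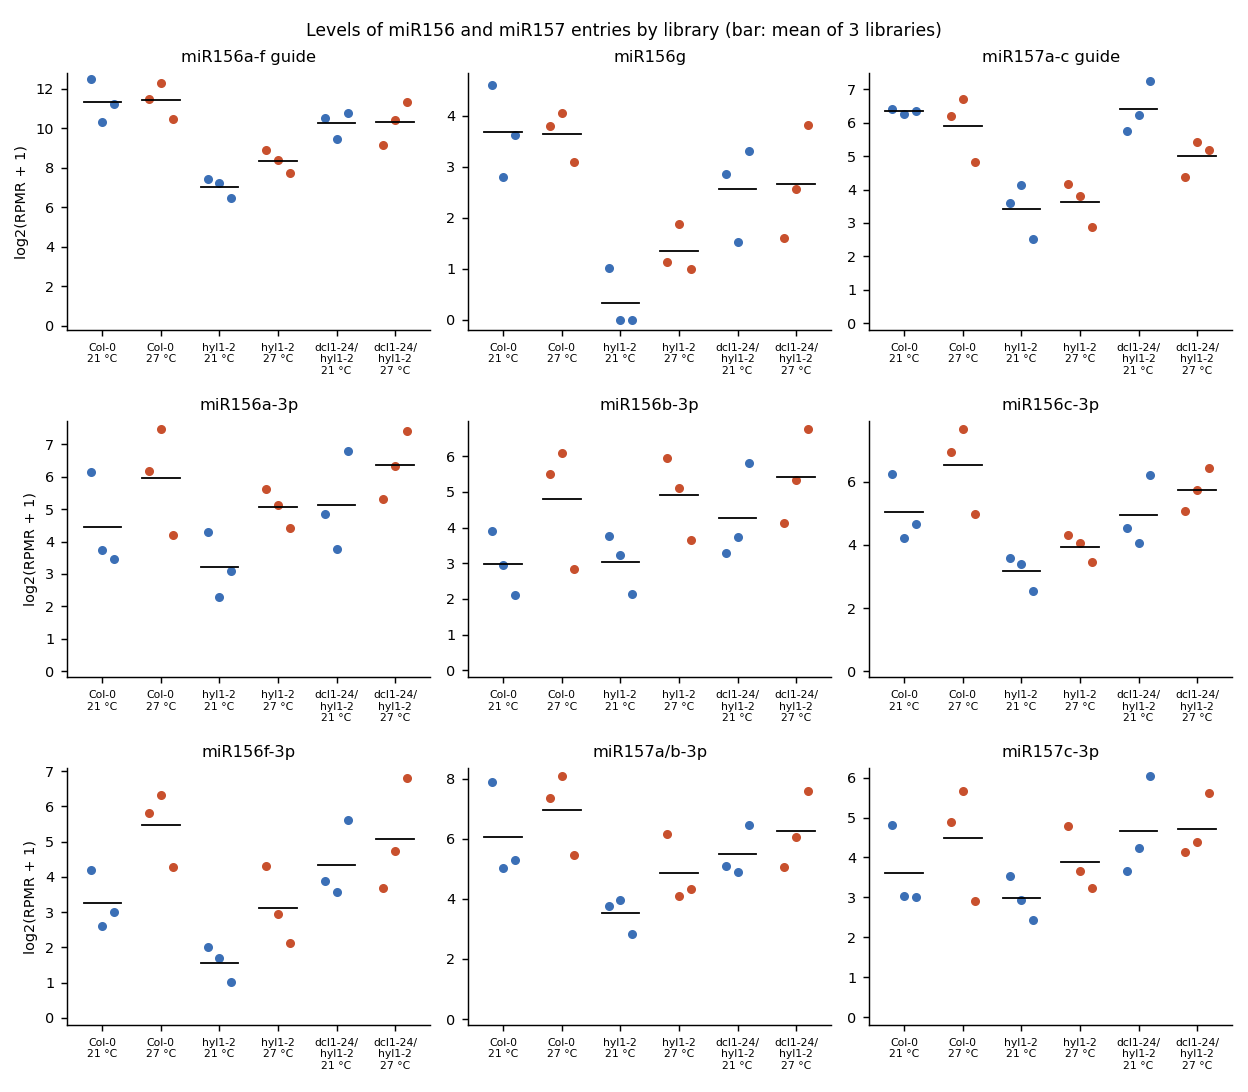
Level of each of the 9 miR156 and miR157 entries in the 18 libraries, as log2(RPMR + 1), with blue points for 21 °C, orange points for 27 °C and a bar at the mean of 3 libraries. The 3 guide entries sit lower in every *hyl1-2* library than in Col-0, while the miR156b-3p points of *hyl1-2* and Col-0 cover the same range. Within a temperature, 66.2% of the 139 entries tested lay below Col-0 in every *hyl1-2* library at 21 °C, and 54.7% at 27 °C.

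In Col-0 every passenger was far less abundant than the miR156 guide. miR156b-3p, the passenger with the smallest difference between *hyl1-2* and Col-0 relative to rRNA, was at 13.9, 6.76 and 3.31 RPMR in Col-0 at 21 °C and at 12.6, 8.34 and 3.40 RPMR in *hyl1-2* at 21 °C. At 27 °C it was at 44.4, 67.7 and 6.14 RPMR in Col-0 and at 60.4, 33.3 and 11.7 RPMR in *hyl1-2*. The groups overlapped at both temperatures. In *dcl1-24*/*hyl1-2* it was at 8.77, 12.3 and 54.7 RPMR at 21 °C and at 16.5, 39.6 and 108 RPMR at 27 °C.

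miR156c-3p was the most abundant miR156 passenger in Col-0, at 75.3, 17.7 and 24.1 RPMR at 21 °C and at 123, 204 and 30.4 RPMR at 27 °C. In *hyl1-2* it was at 11.1, 9.46 and 4.76 RPMR at 21 °C and at 19.0, 15.5 and 10.0 RPMR at 27 °C, below every Col-0 library of the same temperature. miR156b-3p amounted to 18.4%, 38.1% and 13.7% of miR156c-3p in Col-0 at 21 °C, and to 114%, 88.2% and 71.4% in *hyl1-2* at 21 °C. At 27 °C it amounted to 35.9%, 33.3% and 20.2% in Col-0 and to 318%, 214% and 117% in *hyl1-2*. The genotypes did not overlap in this ratio at either temperature, and it was not tested.

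miR156f-3p was at 17.3, 5.07 and 7.09 RPMR in Col-0 at 21 °C and at 3.03, 2.23 and 1.02 RPMR in *hyl1-2* at 21 °C, the latter on 6, 4 and 3 reads. At 27 °C it was at 55.2, 78.8 and 18.4 RPMR in Col-0 and at 18.8, 6.66 and 3.34 RPMR in *hyl1-2*. The Col-0 and *hyl1-2* libraries were apart at 21 °C and overlapped at 27 °C, where Col-0 replicate 3 lay below *hyl1-2* replicate 1. In *dcl1-24*/*hyl1-2* it was at 13.8, 10.9 and 47.5 RPMR at 21 °C and at 11.9, 25.8 and 109.7 RPMR at 27 °C.

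miR157a/b-3p is called the passenger by convention, yet in several libraries it was more abundant than the miR157 guide, although its entry sums fewer loci. In Col-0 it was at 237, 31.2 and 38.3 RPMR at 21 °C and at 162, 270.1 and 43.3 RPMR at 27 °C. In *hyl1-2* it was at 12.6, 14.5 and 6.13 RPMR at 21 °C and at 69.7, 16.0 and 19.0 RPMR at 27 °C. It exceeded the guide in every library grown at 27 °C, of all 3 genotypes. miR156a-3p ranged over 9.92 to 69.3 RPMR in Col-0 at 21 °C and 3.89 to 18.7 RPMR in *hyl1-2* at 21 °C, and miR157c-3p over 7.09 to 27.2 and 4.42 to 10.6 RPMR, so both overlapped between the genotypes.

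Loss of HYL1 was compared with Col-0 at each temperature by limma, a linear model with moderated variances, on log2(RPMR + 1) in a fit over all 18 libraries. It tested the 139 entries whose mean reached 1 RPMR, among them all 9 of miR156 and miR157, and a difference was called at a Benjamini-Hochberg adjusted p under 0.05, two-sided. Fold changes on this scale understate the change of the lowest entries. The p-values rest on the spread between libraries within groups, pooled over all 6 groups and moderated towards that of entries of similar level. They do not measure the spread of the compared groups alone. At 21 °C, 6 of the 9 entries were lower in *hyl1-2*, against 59.7% of all entries tested, and at 27 °C 6 of the 9 were lower, against 54.0% of all. The median log2 fold change of the 9 entries was -1.87 at 21 °C, beside -1.95 for all entries, and -2.29 at 27 °C, beside -1.62. As a group, the 9 entries thus moved about as much as the rest of the table at 21 °C, and the distinction lay among the strands.

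The miR156 guide fell by 4.28 on the log2 scale in *hyl1-2* at 21 °C (SE 0.67, limma adjusted p = 6e-08) and by 3.05 at 27 °C (SE 0.67, adjusted p = 0.00012). miR156g fell by 3.34 at 21 °C (SE 0.68, adjusted p = 1.8e-05) and by 2.31 at 27 °C (adjusted p = 0.0029). The miR157 guide fell by 2.92 at 21 °C (SE 0.74, adjusted p = 0.0004) and by 2.29 at 27 °C (adjusted p = 0.0064). All 3 guide entries were therefore lower by more than the median entry of the table. The fitted value of miR156g at 21 °C rests on the pseudocount of 1, because 2 of its *hyl1-2* libraries were at 0.

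Among the passengers, miR157a/b-3p fell by 2.55 (SE 0.78, adjusted p = 0.003), miR156c-3p by 1.87 (SE 0.76, adjusted p = 0.026) and miR156f-3p by 1.70 (SE 0.76, adjusted p = 0.045) at 21 °C. The same 3 were lower at 27 °C, where miR156c-3p fell by 2.59 (adjusted p = 0.0029), miR156f-3p by 2.35 (adjusted p = 0.0064) and miR157a/b-3p by 2.12 (adjusted p = 0.017). The remaining 3 passengers did not pass the test at either temperature. For miR156a-3p the log2 fold change was -1.21 at 21 °C (adjusted p = 0.17) and -0.89 at 27 °C (adjusted p = 0.34), and for miR157c-3p it was -0.65 (adjusted p = 0.47) and -0.60 (adjusted p = 0.52). For miR156b-3p it was 0.06 at 21 °C, with a 95% interval of -1.49 to 1.61, and 0.09 at 27 °C, with an interval of -1.46 to 1.63, so changes of less than about 3-fold in either direction were not resolved for this strand.

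The calls of the miR156 guide and miR156g at both temperatures, of the miR157 guide at 21 °C and of miR156c-3p at 27 °C held without any single library, but the others did not. At 21 °C, 3 entries were called without Col-0 replicate 1, the library of its group with the highest level of all 9 entries, since miR156c-3p, miR156f-3p and miR157a/b-3p then had adjusted p of 0.18, 0.19 and 0.078. miR156f-3p also lost its call without Col-0 replicate 3 (adjusted p = 0.059), *hyl1-2* replicate 2 (0.075) or *hyl1-2* replicate 3 (0.16), and miR156c-3p without *hyl1-2* replicate 3 (0.12). At 27 °C, 3 entries were called without Col-0 replicate 2 and 3 without *hyl1-2* replicate 3, the miR157 guide, miR156f-3p and miR157a/b-3p being lost in both cases (adjusted p 0.051 to 0.14). The miR157a/b-3p call was also lost at 27 °C without Col-0 replicate 1 (adjusted p = 0.064) or *hyl1-2* replicate 2 (0.097).

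**Figure D2:**
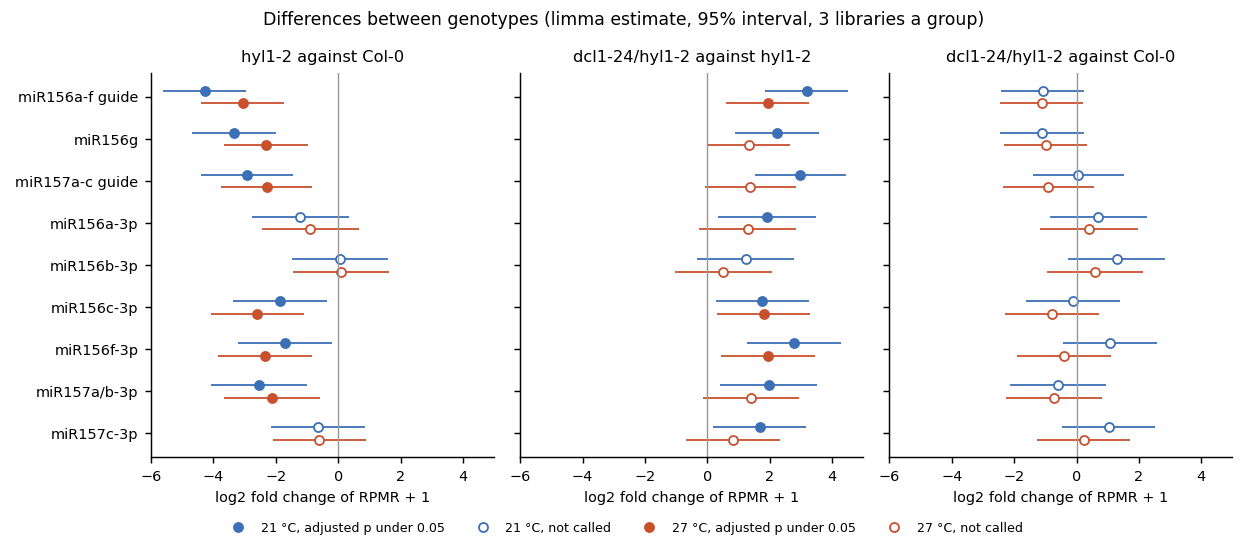
Log2 fold change of the 9 entries between genotypes at 21 °C and 27 °C, on log2(RPMR + 1), with 95% intervals from limma, blue for 21 °C, orange for 27 °C and filled points for an adjusted p under 0.05. For *hyl1-2* against Col-0 at 21 °C the miR156 guide (-4.28) lies lowest and miR156b-3p (0.06) highest, both on the scale of 45S rRNA reads.

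These falls are relative to 45S rRNA reads. When libraries were scaled to miRNA instead, the median log2 fold change of all entries in *hyl1-2* at 21 °C moved from -1.95 to -0.21 (scaled to the summed miRNA RPMR), 0.21 (the same sum without miR5026) and -0.36 (median of ratios). The miR156 guide remained lower under all 3 scalings at 21 °C, by -1.42 (adjusted p = 0.0031), -0.85 (adjusted p = 0.031) and -1.62 (adjusted p = 0.0004). At 27 °C it remained lower under 2 of them, by -1.22 (adjusted p = 0.014) and -0.99 (adjusted p = 0.022), and was at -0.39 (adjusted p = 0.37) with the sum that omits miR5026. miR156g at 21 °C was likewise below Col-0 under each, by -2.26, -1.83 and -2.33. The guide's fall thus exceeded the general loss of miRNA at 21 °C on each of these scales.

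Some passengers turned direction with the scaling, whereas miR156b-3p, near 0 relative to rRNA (0.06 at 21 °C and 0.09 at 27 °C), moved further up. miR156b-3p stood above Col-0 in the *hyl1-2* libraries at 21 °C, by 2.64 (adjusted p = 0.0009), 3.07 (adjusted p = 0.00027) and 2.45 (adjusted p = 0.00079) on the log2 scale, and at 27 °C by 1.87 (adjusted p = 0.015), 2.65 (adjusted p = 0.0014) and 2.08 (adjusted p = 0.0052). miR157c-3p was higher at 21 °C, by 1.99 (adjusted p = 0.0024), 2.46 (adjusted p = 0.00067) and 1.79 (adjusted p = 0.0033). miR156c-3p, lower relative to rRNA, was at 0.83, 1.36 and 0.63 at 21 °C, where only the value without miR5026 passed the test (adjusted p = 0.016), and the miR157 guide lost its call under each, at -0.20, 0.36 and -0.39. Which scale follows the amount per seedling was not tested.

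**Figure D3:**
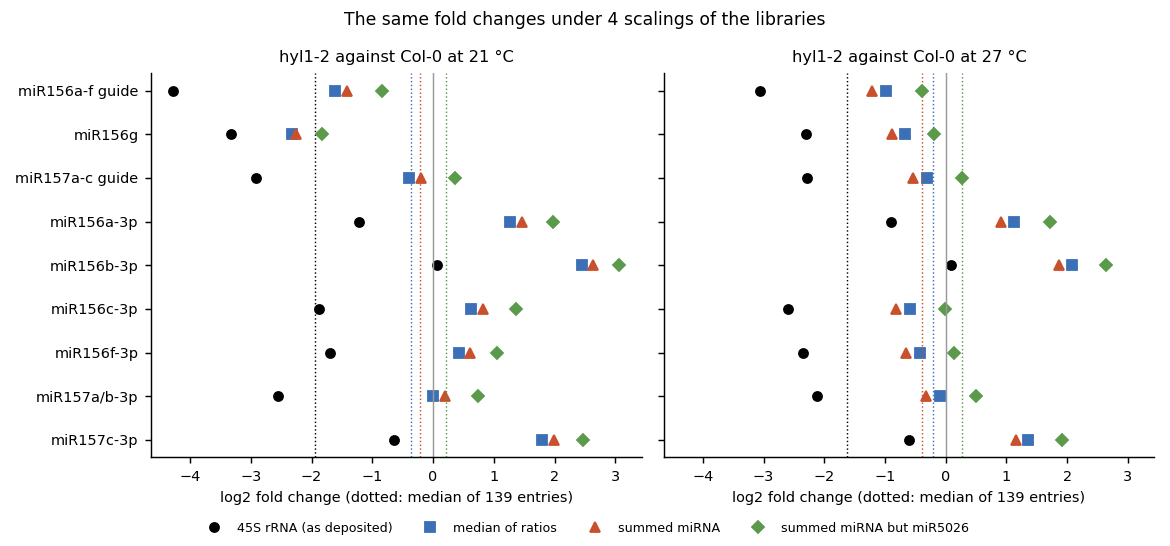
Log2 fold change of the 9 entries in *hyl1-2* against Col-0 under 4 ways of scaling the libraries: 45S rRNA reads (black circles), median of ratios (blue squares), summed miRNA (orange triangles) and summed miRNA without miR5026 (green diamonds), with a dotted line of the same colour at the median of the 139 entries. At 21 °C the miR156 guide lies below 0 on every scale, from -4.28 to -0.85, and miR156b-3p moves from 0.06 to between 2.45 and 3.07, while miR156a-3p, miR156c-3p, miR156f-3p and miR157c-3p change sign.

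The ratio of passenger to guide within a library does not depend on how the library is scaled, apart from the pseudocount, and was compared next. It was tested with limma over the 41 strand pairs of the table, as log2(3p + 1) minus log2(5p + 1). The names 3p and 5p stand for the strands from the 3′ and the 5′ side of a precursor. In the 6 pairs of these families the 5p strand is the guide, so the ratio is that of passenger to guide. In other families the guide can be the 3p strand, so a higher ratio there need not mean more passenger. The 6 pairs of these families comprised miR156a, miR156b, miR156c and miR156f, which share the 1 guide entry and are therefore not independent, and miR157a/miR157b and miR157c, which share the miR157 guide. The miR156b passenger stood at 0.243%, 0.539% and 0.139% of the guide in Col-0 at 21 °C and at 7.27%, 5.60% and 3.88% in *hyl1-2*. For miR156c the values were 1.32%, 1.41% and 1.02% in Col-0 and 6.40%, 6.34% and 5.43% in *hyl1-2*. The genotypes were apart in every library for both pairs.

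At 21 °C, 5 of the 6 ratios were higher in *hyl1-2*, against 19.5% of all 41 pairs (3p over 5p, 8 higher, with 8 others lower). Shares over all pairs, here and below, are of the 3p to 5p ratio. They do not give the share of pairs in which the passenger rose or fell relative to its guide. The log2 difference was 4.34 for miR156b (SE 0.58, adjusted p = 1.6e-05, 20.2-fold), 3.06 for miR156a (SE 0.57, adjusted p = 0.00021), 2.58 for miR156f (SE 0.43, adjusted p = 0.00018), 2.40 for miR156c (SE 0.43, adjusted p = 0.00021) and 2.27 for miR157c (SE 0.56, adjusted p = 0.0038). The exception was miR157a/miR157b, at 0.37 (SE 0.65, adjusted p = 0.75), whose passenger stood at 280.1%, 41.3% and 47.1% of the guide in Col-0 and at 114%, 86.7% and 129% in *hyl1-2*. The count of 5 was the same without any single library. Summed over the 4 listed loci, the miR156 passengers amounted to 3.09%, 3.33% and 1.87% of the guide in Col-0 at 21 °C and to 26.2%, 16.0% and 19.0% in *hyl1-2*.

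At 27 °C, 3 of the 6 ratios were higher in *hyl1-2*, against 9.76% of all pairs (3p over 5p, 4 higher, with 4 others lower). These were miR156b (3.14, SE 0.58, adjusted p = 0.0012), miR156a (2.16, SE 0.57, adjusted p = 0.016) and miR157c (1.69, SE 0.56, adjusted p = 0.041). The ratio of miR156b stood at 1.57%, 1.36% and 0.433% in Col-0 and at 12.7%, 9.87% and 5.43% in *hyl1-2*, apart in every library. For miR156c (0.46, adjusted p = 0.49), miR156f (0.70, adjusted p = 0.33) and miR157a/miR157b (0.17, adjusted p = 0.9) the libraries overlapped. Without Col-0 replicate 3 or without *hyl1-2* replicate 3, only the miR156b ratio passed the test, and the miR157c call was lost without any 1 of the 6 libraries compared (adjusted p 0.057 to 0.15).

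**Figure D4:**
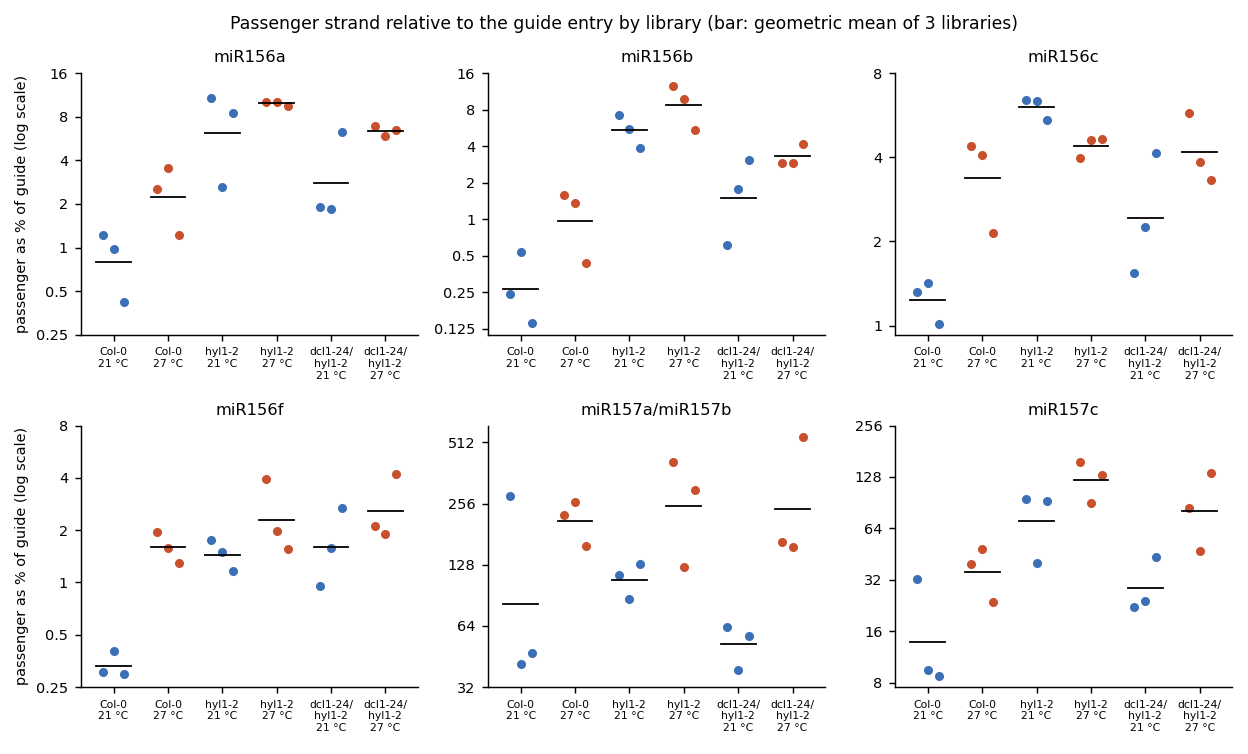
Passenger strand as a percentage of its guide in each of the 18 libraries for the 6 strand pairs, on a log axis, with blue points for 21 °C, orange points for 27 °C and a bar at the geometric mean of 3 libraries. The miR156b ratio at 21 °C lies between 0.139% and 0.539% for Col-0 and between 3.88% and 7.27% for *hyl1-2*, and the miR157a/miR157b ratio overlaps between these groups.

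The suppressor line was compared with *hyl1-2* to ask what the *dcl1-24* allele changes in the absence of HYL1. At 21 °C, 8 of the 9 entries were higher in *dcl1-24*/*hyl1-2*, against 79.9% of all entries tested. The miR156 guide was higher by 3.19 on the log2 scale (SE 0.67, limma adjusted p = 3.6e-05), the miR157 guide by 2.99 (SE 0.74, adjusted p = 0.00033), miR156f-3p by 2.78 (SE 0.76, adjusted p = 0.00095) and miR156g by 2.23 (SE 0.68, adjusted p = 0.0025). The other 4 that passed were higher by 1.68 to 1.96. miR156b-3p was the entry that did not pass, at 1.23 (SE 0.78, adjusted p = 0.14). The count fell to 4 without *hyl1-2* replicate 3 and to 4 without *dcl1-24*/*hyl1-2* replicate 3, the library with the fewest rRNA reads.

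At 27 °C, 3 of the 9 entries were higher, against 47.5% of all: miR156f-3p by 1.96 (SE 0.76, adjusted p = 0.026), the miR156 guide by 1.94 (SE 0.67, adjusted p = 0.013) and miR156c-3p by 1.80 (SE 0.76, adjusted p = 0.04). No entry passed without *hyl1-2* replicate 3 or without *dcl1-24*/*hyl1-2* replicate 3, 1 passed without *hyl1-2* replicate 2, and 6 passed without *dcl1-24*/*hyl1-2* replicate 1. miR156c-3p also lost its call without *dcl1-24*/*hyl1-2* replicate 2 (adjusted p = 0.084). The median of the 9 entries was 1.97 at 21 °C and 1.38 at 27 °C, beside 2.09 and 1.46 for all entries.

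Relative to miRNA, the miR156 and miR157 guide calls were lost. Scaled to the summed miRNA RPMR, the median of all entries moved to 0.17 at 21 °C and -0.06 at 27 °C, and the miR156 guide was at 0.04 (adjusted p = 0.97) and -0.16 (adjusted p = 0.84). At 21 °C it was at 0.38 without miR5026 (adjusted p = 0.33) and at 0.71 by median of ratios (adjusted p = 0.077). miR156g was at 0.99, 1.31 and 1.42 at 21 °C under the 3 scalings, and the last of these passed the test (adjusted p = 0.048). Scaled to the summed miRNA RPMR, 3 passengers were lower in the suppressor line at 21 °C: miR156b-3p by -1.70 (adjusted p = 0.027), and miR156c-3p by -1.22 (adjusted p = 0.029) and miR157c-3p by -1.27 (adjusted p = 0.044), which had both been called higher relative to rRNA. None of the 3 passed under the other miRNA scalings (adjusted p 0.072 to 0.26).

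Between the suppressor line and *hyl1-2* at 21 °C, 2 of the 6 strand ratios were lower, against 7.32% of all pairs (3 lower, with 6 others higher): miR156b by -1.96 (SE 0.58, adjusted p = 0.026) and miR156c by -1.42 (SE 0.43, adjusted p = 0.026). The miR156b passenger stood at 0.611%, 1.78% and 3.09% of the guide in *dcl1-24*/*hyl1-2*, and that of miR156c at 1.54%, 2.25% and 4.16%, in each case below all *hyl1-2* libraries. Neither ratio passed the test without *hyl1-2* replicate 1, without *hyl1-2* replicate 3 or without *dcl1-24*/*hyl1-2* replicate 1, nor without *hyl1-2* replicate 2 (adjusted p = 0.052 and 0.056). Without *dcl1-24*/*hyl1-2* replicate 2 the miR156c call was lost (adjusted p = 0.083). None passed when only the compared groups were fitted. At 27 °C none of the 6 differed by limma, against 9.76% of all pairs, and 1 had an unadjusted p under 0.05, beside 7 of all 41 pairs.

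Against Col-0, none of the 9 levels of *dcl1-24*/*hyl1-2* passed the test by limma, beside 21.6% of all entries changed at 21 °C and 26.6% at 27 °C. None of the 9 had an unadjusted p under 0.05, beside 44 and 46 of all 139 entries. The miR156 guide was at -1.09 at 21 °C (SE 0.67, 95% interval -2.42 to 0.24, adjusted p = 0.29) and at -1.11 at 27 °C (SE 0.67, 95% interval -2.44 to 0.22, adjusted p = 0.24). miR156b-3p was at 1.29 at 21 °C (SE 0.78, adjusted p = 0.29). Both intervals of the guide include falls of more than 4-fold, so relative to rRNA a lasting deficit of the guide was neither shown nor bounded closely. Scaled to the summed miRNA RPMR, where the median of all entries was at -0.32 and -0.71, the guide was lower than in Col-0 by -1.39 at 21 °C (adjusted p = 0.007) and -1.38 at 27 °C (adjusted p = 0.0056). With the sum that omits miR5026 it was at -0.47 (adjusted p = 0.28) and -0.15 (adjusted p = 0.83). By median of ratios it was lower at 21 °C, by -0.91 (adjusted p = 0.036), and at -0.63 at 27 °C (adjusted p = 0.15).

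The strand ratios were also compared with Col-0. At 21 °C, 3 of the 6 were higher in *dcl1-24*/*hyl1-2*, against 9.76% of all pairs (3p over 5p, 4 higher, with 1 lower). These were miR156b by 2.38 (SE 0.58, adjusted p = 0.012), miR156f by 2.17 (SE 0.43, adjusted p = 0.003) and miR156a by 1.79 (SE 0.57, adjusted p = 0.042). The miR156f passenger stood at 0.304%, 0.404% and 0.299% of the guide in Col-0 and at 0.960%, 1.57% and 2.69% in *dcl1-24*/*hyl1-2*, apart in every library. None passed when only the compared groups were fitted. Without Col-0 replicate 3 or without *dcl1-24*/*hyl1-2* replicate 3, only the miR156f ratio passed, and the miR156a call was lost when any of 10 of the 18 libraries was left out (adjusted p 0.051 to 0.28). None of the 6 ratios differed at 27 °C by limma, beside 0% of all pairs, and 2 had an unadjusted p under 0.05, beside 8 of all 41 pairs.

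Warm growth was examined within each genotype. In Col-0, none of the 9 levels differed between 27 °C and 21 °C by limma, beside 0.719% of all entries. An unadjusted p under 0.05 was seen for 2, miR156f-3p and miR156b-3p, beside 14 of all 139 entries. Among the 9 entries, only miR156f-3p had all its Col-0 libraries at 27 °C above those at 21 °C, as did 5.755% of all entries tested. Its log2 fold change was 2.20 (SE 0.76, adjusted p = 0.15). It passed the test without Col-0 replicate 3 at 27 °C (2.79, adjusted p = 0.03), and under the scalings to miRNA. The miR156 guide was at 0.08 (SE 0.67, 95% interval -1.25 to 1.41, adjusted p = 0.97), and the replicates of 1 group differed by up to 4.54-fold, so a change of 2-fold would not have been detected.

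In *hyl1-2* none of the 9 levels differed between temperatures by limma, beside 0% of all entries, and 3 had an unadjusted p under 0.05, beside 16 of all 139 entries. For 4 of the 9, every *hyl1-2* library at 27 °C lay above those at 21 °C, as for 16.5% of all entries tested. They were the miR156 guide, miR156a-3p, miR156f-3p and miR157a/b-3p. Relative to rRNA the log2 fold changes of the 9 were all positive, from 0.19 to 1.86, beside a median of 0.58 for all entries. That of the miR157 guide was negative under the miRNA scalings (-0.79, -0.55 and -0.73). The miR156 guide was at 1.30 (SE 0.67, adjusted p = 0.42), and at 0.27 when scaled to the summed miRNA RPMR (adjusted p = 0.63). In *dcl1-24*/*hyl1-2* none of the 9 passed by limma, beside 1.44% of all entries, and none had an unadjusted p under 0.05, beside 12 of all 139 entries. There the miR157 guide was lower in every library at 27 °C than at 21 °C, as were 5.755% of all entries tested. Its log2 fold change was -1.41 (SE 0.74, adjusted p = 0.59). It passed the test when scaled to the summed miRNA RPMR (-1.37, adjusted p = 0.04) and by median of ratios (-1.47, adjusted p = 0.019), and did not with the sum that omits miR5026 (-1.09, adjusted p = 0.11). The temperature difference of *hyl1-2* minus that of Col-0, and that of *dcl1-24*/*hyl1-2* minus that of Col-0, was called by limma for none of the 9 entries and for 0% of all entries. None of the 9 had an unadjusted p under 0.05 in these comparisons either, beside 4 and 1 of all 139 entries.

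The strand ratios were also compared between temperatures, a test added after the data had been seen. All 6 were higher at 27 °C in Col-0, by 1.31 to 2.12 on the log2 scale, beside a median of 0.30 for all 41 pairs. Of these 6, which share guide entries and are not independent, 5 had an unadjusted p under 0.05, beside 7 of the 41 pairs. 1 of the 6, miR156f, passed the adjusted test (2.12, SE 0.43, adjusted p = 0.0019), against 2.44% of all pairs, which is this pair alone. Its passenger stood at 1.96%, 1.58% and 1.30% of the guide at 27 °C, each above the 0.299% to 0.404% at 21 °C. miR156c was next, at 1.41 (SE 0.43, adjusted p = 0.054), with 4.38%, 4.08% and 2.14% at 27 °C, above its 1.02% to 1.41% at 21 °C. miR156b was at 1.75 (SE 0.58, adjusted p = 0.072), and its libraries overlapped.

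How many of these ratios passed in Col-0 depended on single libraries. 3 passed without Col-0 replicate 1 at 21 °C, Col-0 replicate 3 at 27 °C, or replicate 1 or 3 of the suppressor line at 21 °C, and 2 without Col-0 replicate 2 at 21 °C. In *hyl1-2* none of the 6 ratios differed between temperatures by limma, beside 0% of all pairs, and the differences ran from -0.53 to 1.14. None of all 41 pairs had an unadjusted p under 0.05 there. In *dcl1-24*/*hyl1-2* none of the 6 passed by limma, beside 0% of all pairs, and 2 had an unadjusted p under 0.05, beside 9 of all 41 pairs. The largest difference of the 6, that of miR157a/miR157b, was at 2.17 (SE 0.65, adjusted p = 0.13). That ratio passed without Col-0 replicate 1 at 21 °C (adjusted p = 0.011).

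The binding sites in *SPL* messengers are shown because they are where the guide acts, and because the deposited table measures small RNAs and not these targets. Each site is written 5′ to 3′ as RNA, capitals mark bases that pair with the miR156 guide by Watson-Crick rules and lower case marks those that do not. The first sequence is shared by *SPL2*, *SPL6*, *SPL9*, *SPL10*, *SPL11*, *SPL13A*, *SPL13B* and *SPL15*, and lies in the coding sequence of each (for *SPL9* at chr2:17589066-17589085, plus strand). Those of *SPL3*, *SPL4* and *SPL5* lie in the 3′ untranslated region.
SPL9 site: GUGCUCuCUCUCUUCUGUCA
SPL3 site: uUGCUuACUCUCUUCUGUCA
SPL4 site: cUGCUCuCUCUCUUCUGUCA
SPL5 site: ccGCUCuCUCUCUUCUGUCA

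The shared site has 1 mismatch, A7U, counted from 1 at the 5′ end of the site with the pairing base first, which faces base 14 of the guide. *SPL3* differs at G1U and C6U, *SPL4* at G1C and A7U, and *SPL5* at G1C, U2C and A7U. Of 27562 protein-coding genes in the annotation, 8 (0.029%) held a site with at most 1 mismatch in a transcript, all of them *SPL* genes. 10 genes (0.0363%) held one with at most 2 mismatches, again all *SPL* genes, and 13 with at most 3, of which 11 were *SPL* genes. A match describes the sequence only. The transcripts of these genes were not measured in these libraries.

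miR172 is a miRNA downstream of the *SPL* genes, as SPL9 promotes its transcription in leaves. Its single entry in the table, joining miR172a and miR172b-3p, ran from 0 to 4.49 RPMR over the 18 libraries and was at 0 in at least 1 library of every genotype. Its log2 fold change in *hyl1-2* was -0.70 at 21 °C (SE 0.54, limma adjusted p = 0.26) and -0.47 at 27 °C (SE 0.54, adjusted p = 0.47), and it passed none of the genotype or temperature tests. Such levels correspond to a few reads, so differences in miR172 were not detectable at this depth.

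The entries whose profile over the 18 libraries was most like that of the miR156 guide were found from the root mean square difference of log2(RPMR + 1) after each entry's mean was removed. They were miR159b-3p (0.347), miR161.1 (0.382), miR858a (0.455), the joint miR319a and miR319b entry (0.487) and miR156g (0.511). The miR156 passengers were further away, at 0.835 for miR156c-3p, 1.05 for miR156f-3p, 1.34 for miR156a-3p and 1.76 for miR156b-3p. miR157a/b-3p was at 0.773, the miR157 guide at 0.882 and miR157c-3p at 1.36. For the miR157 guide the nearest entries were miR158a-3p (0.423), miR163 (0.436) and miR158b (0.482). The points share their libraries and the rRNA scale, and no test was made.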

How the data were processed

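Small RNAs of 15 to 40 nt from whole seedlings were sequenced in 18 libraries, 3 in each of 6 groups given by the labels. The authors trimmed adapters with cutadapt 3.0, aligned reads without mismatches to the Arabidopsis genome with ShortStack, and deposited RPM values, the reads of each miRNA per 1000000 reads of 45S rRNA in the library (RPMR). Multi-mapping reads were placed by unique neighbours, so reads of the guide shared by several loci are summed in 1 entry. The submitters' notes also name DESeq2 1.35.0. Further sheets hold the authors' fold changes and p-values and were not used.

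Values were analysed with limma 3.58.1 in R 4.3.3 (trend, 6 group means, pseudocount 1, minimum mean 1 RPMR, 139 entries, two-sided), and with Python 3.11.15, pandas 2.3.3, numpy 2.4.6, scipy 1.17.1 and matplotlib 3.10.9. The script was tested on simulated data. Reads were recovered by dividing by the value of 1 read, and were used for depth only. The library with the fewest values of up to 20 reads held 65 of them, under the 100 set as needed, so no count model was fitted. Intervals are those of limma, from the spread between libraries pooled over the groups and moderated over entries. Floors of 3 reads cover counting error only. For strand pairs, log2 ratios of the 3p to the 5p strand of 41 pairs were fitted likewise. Sequences came from the RefSeq annotation of TAIR10.1.

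The entries, lists and tests were chosen with earlier results of these data known. All 9 entries and the miR172 entry were to be named, with the 5 nearest profiles. Alternatives were pseudocounts of 0.5 and 5, other minimum levels, 3 scalings, only the groups compared, a replicate block and leaving out each library. Libraries with the same replicate number deviated together, with all 3 correlations over 0.1, in 2 of 9 comparisons: *hyl1-2* against Col-0 at 27 °C (0.16 to 0.48) and 27 °C against 21 °C in *dcl1-24*/*hyl1-2* (0.14 to 0.27). The labels do not say what a number shares.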

Additional observations from a re-analysis of the deposited data

Results flagged for a closer look

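The miR156c strand ratio moved in opposite directions with temperature. The passenger stood at 1.32%, 1.41% and 1.02% of the guide in Col-0 at 21 °C and at 4.38%, 4.08% and 2.14% at 27 °C, so that every warm library was above every cool one. In *hyl1-2* it stood at 6.40%, 6.34% and 5.43% at 21 °C and at 3.99%, 4.61% and 4.65% at 27 °C, so that every warm library was below every cool one. The temperature difference in *hyl1-2* minus that in Col-0 was -1.94 on the log2 scale (SE 0.61, limma adjusted p = 0.13), a comparison added after the data had been seen. It did not pass the test over the 41 pairs, and the *hyl1-2* values rest on 14 to 22 passenger reads at 21 °C.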

How the results depend on the processing

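Counts of called entries depended most on the scaling, and the values below are given for scaling to the summed miRNA RPMR, to that sum without miR5026, and by median of ratios, in this order. At 21 °C the entries lower in *hyl1-2* numbered 2, 2 and 2, and at 27 °C 1, 0 and 1. For the suppressor line above *hyl1-2* the count was 0, 0 and 1 at 21 °C and 0 under each scaling at 27 °C. Against Col-0, the suppressor line changed in 1, 3 and 1 entries at 21 °C, and in 2 and 1 at 27 °C under the first 2 scalings. Between temperatures, 2, 1 and 1 changed in Col-0, and 1 in the suppressor line under the first and the last. The strand ratios that differed between the suppressor line and *hyl1-2* at 21 °C numbered 1, 1 and 0. These scalings also move the median of all entries, and the cause of each change was not tested.

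Fold changes in *hyl1-2* against Col-0 that changed sign under the same 3 scalings were, at 21 °C, those of miR156a-3p (1.47, 1.97 and 1.27), miR156c-3p (0.83, 1.36 and 0.63), miR156f-3p (0.60, 1.06 and 0.42) and miR157c-3p (1.99, 2.46 and 1.79). miR157a/b-3p was at 0.19 and 0.74 under the first 2, and the miR157 guide at 0.36 without miR5026. At 27 °C they were those of miR156a-3p (0.91, 1.71 and 1.13) and miR157c-3p (1.15, 1.92 and 1.35), and, without miR5026, of the miR157 guide (0.26), miR156f-3p (0.13) and miR157a/b-3p (0.50). In the suppressor line against *hyl1-2* at 21 °C, 5 passengers turned: miR156a-3p (-1.08, -0.74 and -0.42), miR156b-3p (-1.70, -1.38 and -1.07), miR156c-3p (-1.22, -0.89 and -0.57), miR157a/b-3p (-1.06, -0.72 and -0.40) and miR157c-3p (-1.27, -0.94 and -0.63). So did, with the summed scale the miR157 guide at 21 °C (-0.032) and the miR156 guide (-0.16) and miR156c-3p (-0.23) at 27 °C. The miR156 guide between temperatures in Col-0 was at -0.30 by median of ratios.

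With a pseudocount of 5, 5 strand ratios differed between the suppressor line and *hyl1-2* at 21 °C and 1 at 27 °C, 2 differed between temperatures in Col-0, and 2 in the temperature difference of *hyl1-2* minus that of Col-0. With a minimum mean of 5 RPMR, 2 differed between temperatures in Col-0. With only the groups compared in the fit, strand ratios that differed between the suppressor line and *hyl1-2* numbered 0 at 21 °C and 1 at 27 °C, those that differed from Col-0 numbered 0 at 21 °C and 2 at 27 °C, and 1 differed between temperatures in the suppressor line. The cause of these changes was not tested. With the replicate block, each of the 22 counts kept its value within 1.5 times and no call of a named value changed, so that 6 entries were lower in *hyl1-2* at 21 °C.

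When each library was left out in turn, entries lower in *hyl1-2* numbered 3 to 6 at 21 °C and 3 to 6 at 27 °C. Entries higher in the suppressor line than in *hyl1-2* numbered 4 to 8 and 0 to 6, and entries changed between temperatures in Col-0 0 to 2. Strand ratios changed in *hyl1-2* against Col-0 numbered 5 at 21 °C and 1 to 3 at 27 °C, in the suppressor line 0 to 3 against *hyl1-2* and 1 to 3 against Col-0 at 21 °C, between temperatures 1 to 3 in Col-0 and 0 to 1 in the suppressor line, and 0 to 2 in the temperature difference of *hyl1-2* minus that of Col-0 (2 without replicate 3 of the suppressor line at 21 °C). Signs turned for miR156b-3p in *hyl1-2* (-0.38 to 0.51 at 21 °C, -0.90 to 0.73 at 27 °C), the miR156 guide between temperatures in Col-0 (-0.44 to 0.65), and the miR157a/miR157b ratio in *hyl1-2* (-0.11 to 1.25 at 21 °C, -0.19 to 0.64 at 27 °C). In *hyl1-2* at 21 °C, miR156g rested on 0 to 2 reads and miR156f-3p on 3 to 6.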
